A study of Homo sapiens with 6 samples.

Results

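The p53 module described here holds 30 genes, out of 32357 genes in the deposited count table. They are the rows whose symbol matches a fixed list of genes taken as p53 targets, which need not all respond to p53 in these cells. The rule that picks the rows uses the gene symbol and no measured value, though the list was chosen with earlier results of these data known. All 30 genes passed the filter on low counts that left 20144 genes in the tests. The table covers 6 RNA libraries from 2 human clear cell renal cell carcinoma lines, A-498 and 786-O. In each line 1 library was made from cells carrying ZNF395 hairpin 3, 1 from cells carrying ZNF395 hairpin 1, and 1 from cells carrying a non-targeting control hairpin. The study asked how knockdown of ZNF395, which encodes a zinc finger transcription factor, alters the transcriptome. All 6 cultures, controls included, had been transduced with a viral hairpin vector and selected with puromycin, so none was unmanipulated. The labels give neither the hairpin sequences, the degree of knockdown at the protein level nor whether a culture came from 1 clone. Because each line and construct has 1 library, the lines serve as replicates of each other. In tests that pool the hairpins as knockdown, the hairpins serve as replicates, alone or beside the lines. The p-values measure only the spread between these libraries.

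p53 is a transcription factor held low in unstressed cells, mainly because MDM2 tags it for destruction. After DNA damage and other stresses it accumulates and switches on genes that stop the cell cycle, repair DNA, change metabolism or bring about apoptosis, together with genes such as MDM2 and PPM1D that shut it off again. Several of these targets also respond to other pathways, among them the ATF4 stress response to amino acid shortage, which is known to raise PMAIP1, BBC3, TNFRSF10B, GDF15 and GADD45A.

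p53 binds DNA as a tetramer at a pair of copies of a conserved palindromic decamer, and some members carry such pairs close to a transcription start. The RefSeq promoter table (build GRCh38.p14, a window from upstream of each listed transcription start to just past it) held 24 of the 30 members. It had no entry for GADD45A, TNFRSF10A, TNFRSF10B, TP53INP1, RRM2B and PHLDA3. A pair of p53 decamers, with at most 2 mismatches in all, the C and G of each core kept and a spacer of 0 to 13 bases, was found in 5 of the 24 members (20.8%), and in 989 of 27305 genes of the table (3.62%). The decamer reads the same on both strands. These 5 sequences are shown because they are the closest matches to the known p53 response element among the member promoters. Capitals mark the decamers and lower case the spacer and flanks, and each is given 5′ to 3′ on the strand of its gene.
DDB2, chr11:47214975-47215003, plus strand: gtttGAACAAGCCCtGGGCATGTTTggcg
MDM2, chr12:68808918-68808947, plus strand: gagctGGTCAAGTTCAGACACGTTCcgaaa
FAS, chr10:88991304-88991333, plus strand: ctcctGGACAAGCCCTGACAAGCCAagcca
AEN, chr15:88621301-88621330, plus strand: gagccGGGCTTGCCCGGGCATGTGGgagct
FDXR, chr17:74872996-74873025, minus strand: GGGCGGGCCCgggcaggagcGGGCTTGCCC
DDB2 had 0 mismatches and a spacer of 1 base, a match held by 10 of the 27305 genes (0.0366%), and it began at base 6 of the listed transcript. The other 4 pairs had 2 mismatches each and began 31 bases (FDXR), 34 bases (AEN), 94 bases (MDM2) and 122 bases (FAS) before the listed start. FDXR had a spacer of 10 bases, and the decamers of AEN, MDM2 and FAS were adjacent. A match is a description of these letters and not evidence of binding in these cells.

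Library totals ran from 77534125 to 99147218 counts, and the smallest count of any member was 160 (TP53I3 in 786-O with hairpin 3). ZNF395 stood at 14.3 CPM with hairpin 3, 14.5 with hairpin 1 and 67.9 in the control in A-498, and in 786-O at 13.5 CPM with hairpin 3, 24.7 with hairpin 1 and 96.3 in the control. Both hairpins lowered it against the control (hairpin 3, log2 fold change -2.52, edgeR adjusted p = 0.00973; hairpin 1, -2.08, edgeR adjusted p = 0.0269). Levels here are CPM, read counts scaled to library size after TMM normalization, and p-values are from edgeR's quasi-likelihood test with Benjamini-Hochberg adjustment over all 20144 genes and a threshold of 0.05. Of 8 renal tubule and clear cell carcinoma genes, the tubular transcription factor genes PAX8 and PAX2 stood at 157 to 256 and 17.7 to 26.6 CPM. VEGFA stood at 141 to 342 CPM, KRT8 at 589 to 1325, KRT18 at 71.2 to 213 and VIM at 795 to 2066. The clear cell carcinoma markers CA9 and NDUFA4L2 were near 0 in both lines, at most 1.68 and 1.16 CPM. Of 9 immune, endothelial and fibroblast markers 7 were in the table, and their sum was 18.7 to 41.0 CPM in A-498 and 5.71 to 7.37 CPM in 786-O. Of these, PTPRC, CD68, CDH5 and DCN stood at 0.150 CPM or less in every library, and KDR at 0.280 or less. The fibroblast markers LUM and COL1A1 were higher. LUM stood at 3.90 to 4.20 CPM in 786-O and at most 0.0204 in A-498. COL1A1 stood at 1.51 to 3.23 CPM in 786-O and 18.5 to 40.8 in A-498. In bulk RNA, fewer cells expressing a gene and less RNA per cell cannot be told apart.

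With hairpin 3, the arrest genes BTG2 and GADD45A, the apoptosis genes PMAIP1, BBC3 and AEN, the p53 phosphatase gene PPM1D and the stress kinase gene PLK3 rose against the control, and CDKN1A, the gene of the cell cycle inhibitor p21, fell. These were 7 members up and 1 down of 30, where 6.71% of all tested genes were called, 2.55% up and 4.16% down. Without adjustment 20 of 30 members had an edgeR p under 0.05, as did 5205 of all 20144 genes tested. The median log2 fold change of the members was 0.49, and that of all genes tested was -0.01. Measured line by line, 21 of 30 members (70%) were higher with hairpin 3 than in the control in both lines and 4 (13.3%) lower in both, where 33.7% of all genes were higher in both and 33.9% lower in both. The members' medians of the line-wise log2 ratio were 0.51 in A-498 and 0.48 in 786-O. With hairpin 1, no member was called against the control (0 of 30, where 0.149% of all genes were, 0.0397% up and 0.109% down). DESeq2 and limma-voom also called 0. An edgeR p under 0.05 without adjustment was held by 8 of 30 members and by 2106 of all 20144 genes. The members' median log2 fold change was -0.12. Against the control, 6 members (20%) were higher with hairpin 1 in both lines and 17 (56.7%) lower in both, where 30.9% of all genes were higher in both and 31.5% lower in both. The members' medians for hairpin 1 were -0.21 in A-498 and -0.10 in 786-O.

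**Figure D1:**
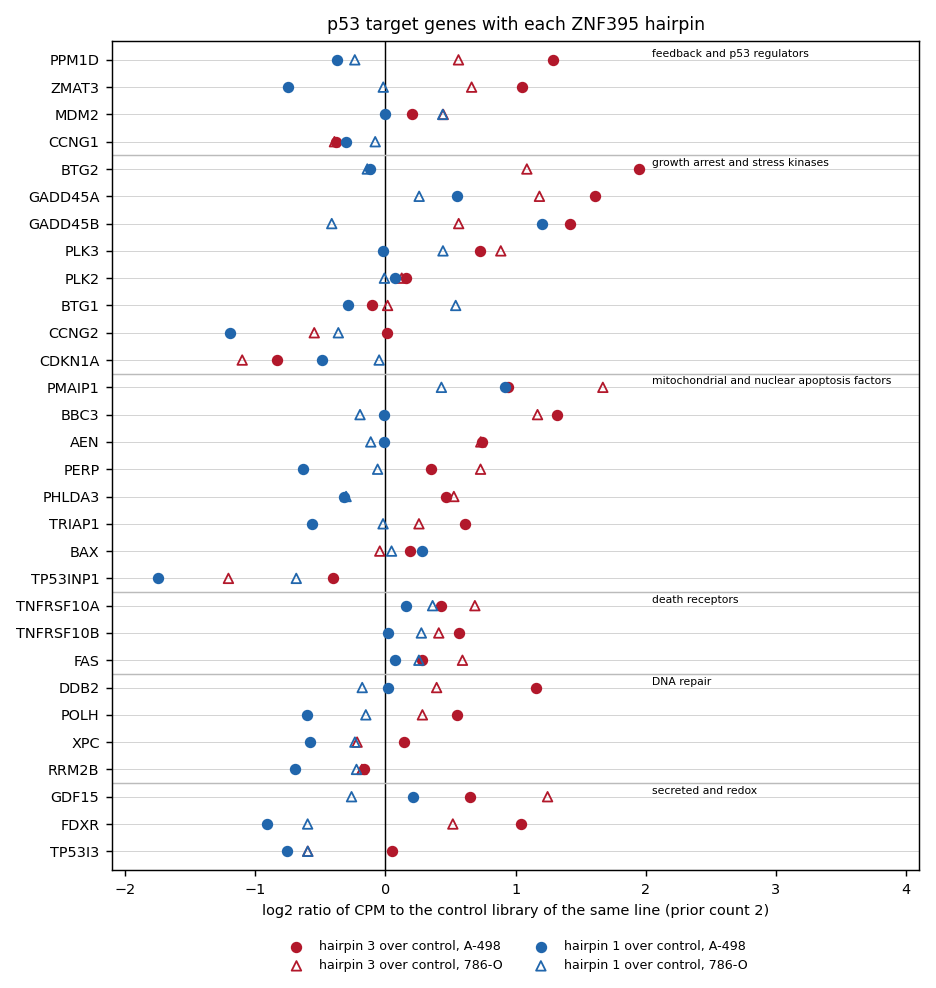
Log2 ratio of CPM (prior count 2) with hairpin 3 (red) and with hairpin 1 (blue) over the control library of the same line, for each of the 30 members grouped by role, with filled circles for A-498 and open triangles for 786-O, 1 library each. With hairpin 3, BTG2, GADD45A, BBC3 and PMAIP1 lie to the right of 0 in both lines, while CDKN1A lies to the left in both.

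Of the 4 negative feedback genes, 1 rose with hairpin 3 and 0 fell, 3 had an unadjusted edgeR p under 0.05, and their median log2 fold change was 0.60. PPM1D encodes WIP1, a phosphatase that removes activating phosphates from p53 and its kinases. In A-498 PPM1D stood at 101 CPM with hairpin 3, 32.1 with hairpin 1 and 41.6 in the control, and in 786-O at 39.4 CPM with hairpin 3, 22.6 with hairpin 1 and 26.7 in the control. The hairpin 3 library was the highest of each line, and PPM1D rose against the control (log2 fold change 0.95, SE 0.214, edgeR adjusted p = 0.0488). MDM2, the ubiquitin ligase that degrades p53, stood at 250.2 CPM with hairpin 3, 216 with hairpin 1 and 217 in the control in A-498, and at 84.5 CPM with hairpin 3, 84.3 with hairpin 1 and 62.2 in the control in 786-O. The A-498 libraries lay far above the 786-O libraries. Hairpin 3 gave 1.15 times the control level in A-498 and 1.36 times in 786-O, where hairpin 1 also gave 1.36 times. The log2 fold change for hairpin 3 was 0.32 and was not called (SE 0.143, edgeR adjusted p = 0.216). ZMAT3, a zinc finger RNA-binding protein, stood at 198 CPM with hairpin 3, 56.9 with hairpin 1 and 95.7 in the control in A-498, and at 140.2 CPM with hairpin 3, 87.6 with hairpin 1 and 88.6 in the control in 786-O. Its hairpin 3 libraries were the highest, but the difference from the control was not called (0.87, SE 0.246, edgeR adjusted p = 0.0819). CCNG1, the gene of cyclin G1, which acts in the MDM2 feedback loop, was 1 of 2 members lowest with hairpin 3 in both lines. It stood at 165 CPM with hairpin 3, 174 with hairpin 1 and 215 in the control in A-498, at 144 CPM with hairpin 3, 179 with hairpin 1 and 189 in the control in 786-O, and was not called (-0.39, SE 0.126, edgeR adjusted p = 0.113).

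Among the 8 arrest genes and stress kinases, BTG2 and CDKN1A moved in opposite directions with hairpin 3. BTG2 is an antiproliferative protein that recruits the mRNA deadenylation machinery. In A-498 BTG2 stood at 307 CPM with hairpin 3, 72.9 with hairpin 1 and 79.4 in the control, and in 786-O at 44.8 CPM with hairpin 3, 19.1 with hairpin 1 and 21.1 in the control. Hairpin 3 gave 3.87 times the control level in A-498 and 2.12 times in 786-O, while both hairpin 1 libraries lay just under their controls. It was the largest log2 fold change of any member with hairpin 3 (1.54, SE 0.226, edgeR adjusted p = 0.0173). CDKN1A, the textbook p53 target whose product p21 blocks cyclin-dependent kinases, stood at 291 CPM with hairpin 3, 371 with hairpin 1 and 521 in the control in A-498. In 786-O CDKN1A stood at 248 CPM with hairpin 3, 515 with hairpin 1 and 533 in the control. The hairpin 3 library was the lowest of each line, at 0.56 times the control in A-498 and 0.47 times in 786-O. It fell with hairpin 3 (log2 fold change -0.96, SE 0.182, edgeR adjusted p = 0.0307). This call was lost when either control library was left out, with an edgeR adjusted p of 0.178 when the A-498 control was omitted and 0.130 when the 786-O control was.

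GADD45A, which binds PCNA and stress kinases after DNA damage, was high with hairpin 3 in both lines. In A-498 it stood at 244 CPM with hairpin 3, 117 with hairpin 1 and 80.0 in the control, and in 786-O at 214 CPM with hairpin 3, 113 with hairpin 1 and 94.3 in the control. Hairpin 1 lay between hairpin 3 and the control in both lines. The rise with hairpin 3 was called (1.39, SE 0.144, edgeR adjusted p = 0.0121), and hairpin 1 was not (0.40, SE 0.142, edgeR adjusted p = 0.395). Its paralog GADD45B stood at 36.7 CPM with hairpin 3, 31.6 with hairpin 1 and 13.7 in the control in A-498, and at 97.3 CPM with hairpin 3, 49.5 with hairpin 1 and 65.9 in the control in 786-O. The hairpin 1 libraries of the 2 lines lay on opposite sides of their controls, and hairpin 3 was not called (0.93, SE 0.331, edgeR adjusted p = 0.139). PLK3, a polo-like stress kinase, stood at 33.5 CPM with hairpin 3, 20.0 with hairpin 1 and 20.2 in the control in A-498, and at 20.8 CPM with hairpin 3, 15.3 with hairpin 1 and 11.2 in the control in 786-O. It rose with hairpin 3 (0.80, SE 0.160, edgeR adjusted p = 0.0350), whereas its paralog PLK2 had a log2 fold change of 0.14 (SE 0.123, edgeR adjusted p = 0.528). PLK2 stood at 1162, 1101 and 1044 CPM with hairpin 3, hairpin 1 and the control in A-498, and within 500.0 to 548 CPM in 786-O. BTG1, the paralog of BTG2, was at -0.05 for hairpin 3 (SE 0.205, edgeR adjusted p = 0.909). CCNG2, an atypical cyclin of arrested cells, was at -0.23 for hairpin 3 (SE 0.293, edgeR adjusted p = 0.669).

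Among the 8 apoptosis genes, 3 rose with hairpin 3 and 0 fell. BBC3, the gene of PUMA, and PMAIP1, the gene of NOXA, encode BH3-only proteins that neutralize the BCL2 family guards of mitochondria. In A-498 BBC3 stood at 59.4 CPM with hairpin 3, 23.7 with hairpin 1 and 23.8 in the control, and in 786-O at 37.9 CPM with hairpin 3, 14.7 with hairpin 1 and 16.8 in the control. The hairpin 3 libraries stood at 2.49 and 2.25 times their controls in A-498 and 786-O, while hairpin 1 libraries were close to their controls or below (1.24 for hairpin 3, SE 0.130, edgeR adjusted p = 0.0121). PMAIP1 stood at 175 CPM with hairpin 3, 172 with hairpin 1 and 91.1 in the control in A-498, and at 249.95 CPM with hairpin 3, 106 with hairpin 1 and 78.5 in the control in 786-O. The hairpin 1 and hairpin 3 libraries nearly coincided in A-498 and lay far apart in 786-O. PMAIP1 rose with hairpin 3 (1.34, SE 0.266, edgeR adjusted p = 0.0345), and with hairpin 1 it had 0.70 (SE 0.263, edgeR adjusted p = 0.417).

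AEN, a nuclease that digests DNA in apoptosis, carries the adjacent decamers shown above. It stood at 179 CPM with hairpin 3, 106 with hairpin 1 and 107 in the control in A-498, and at 107 CPM with hairpin 3, 59.3 with hairpin 1 and 64.2 in the control in 786-O. Hairpin 1 and the control were nearly equal in both lines, and the rise with hairpin 3 was called (0.74, SE 0.116, edgeR adjusted p = 0.0204). BAX, the pore-forming executor that BH3-only proteins release, did not pass the test, at 117, 124 and 103 CPM with hairpin 3, hairpin 1 and the control in A-498, and at 97.5 to 104 CPM in 786-O (0.07 for hairpin 3, SE 0.125, edgeR adjusted p = 0.762). PHLDA3, a repressor of AKT, PERP, a membrane protein of desmosomes and apoptosis, and TRIAP1, a small mitochondrial survival protein, had log2 fold changes of 0.50, 0.53 and 0.45. None was called (edgeR adjusted p = 0.0526, 0.0948 and 0.231). TP53INP1, a stress protein that promotes p53 activity, was lower than the control in all 4 knockdown libraries. In A-498 TP53INP1 stood at 39.2 CPM with hairpin 3, 15.4 with hairpin 1 and 51.8 in the control, and in 786-O at 19.0 CPM with hairpin 3, 27.2 with hairpin 1 and 43.8 in the control. It was called with neither hairpin (hairpin 3, -0.74, SE 0.377, edgeR adjusted p = 0.277; hairpin 1, -1.14, SE 0.382, edgeR adjusted p = 0.371).

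**Figure D2:**
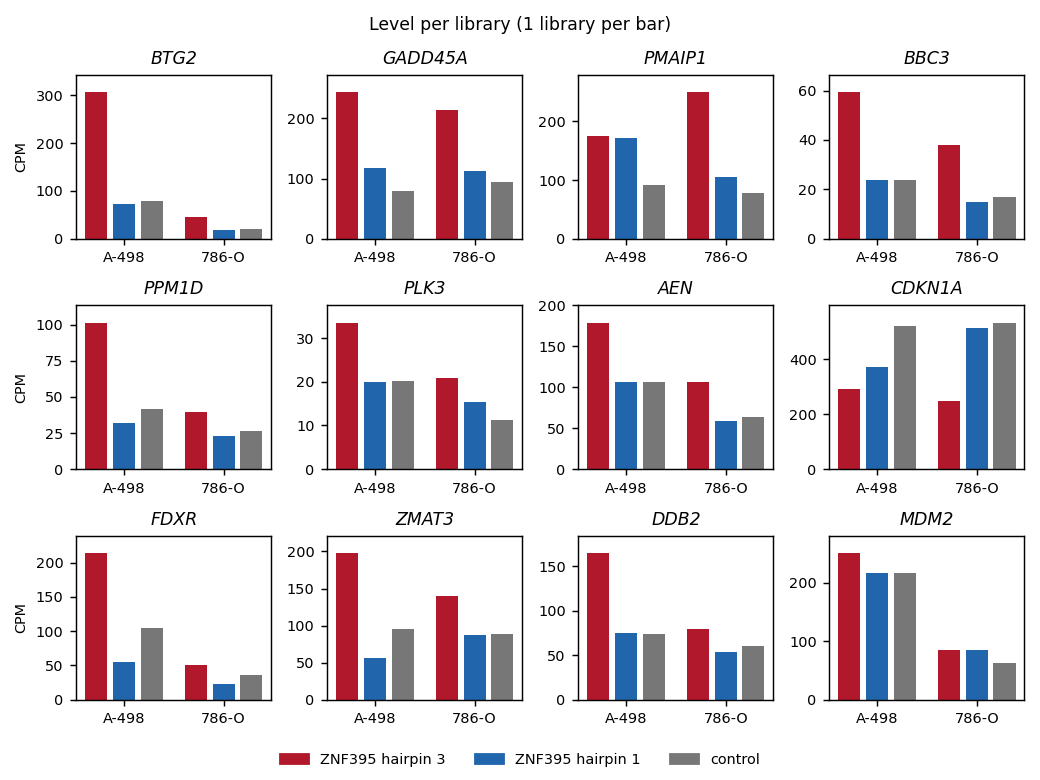
TMM-scaled CPM of 12 selected members, 1 bar per library, with A-498 left of 786-O and hairpin 3, hairpin 1 and the control in that order within a line. BTG2, GADD45A and BBC3 are highest with hairpin 3 in both lines, CDKN1A is lowest there, and MDM2 separates the lines more than the constructs.

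The death receptors pass outside signals to caspases, FAS from its own ligand and TNFRSF10A and TNFRSF10B from TRAIL. All 3 were highest with hairpin 3 in both lines, and 0 of 3 were called by edgeR, with all 3 at an unadjusted p under 0.05. FAS stood at 156 CPM with hairpin 3, 135 with hairpin 1 and 129 in the control in A-498, and at 104 CPM with hairpin 3, 82.8 with hairpin 1 and 69.3 in the control in 786-O (0.44, SE 0.129, edgeR adjusted p = 0.0914). TNFRSF10B had 518 CPM with hairpin 3, 355 with hairpin 1 and 349.8 in the control in A-498, and 219 CPM with hairpin 3, 199.8 with hairpin 1 and 165 in the control in 786-O (0.49, SE 0.141, edgeR adjusted p = 0.0871). Its paralog TNFRSF10A stood at 51.8 CPM with hairpin 3, 43.1 with hairpin 1 and 38.6 in the control in A-498, and at 19.6 CPM with hairpin 3, 15.6 with hairpin 1 and 12.1 in the control in 786-O, with a log2 fold change of 0.55 (SE 0.133, edgeR adjusted p = 0.0576). For all 3 receptors the hairpin 1 libraries lay between hairpin 3 and the control in both lines.

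Of the 4 DNA repair genes, 0 were called by edgeR with hairpin 3, and 2 had an unadjusted p under 0.05. DDB2, which recognizes ultraviolet damage and has the mismatch-free site, stood at 164 CPM with hairpin 3, 74.7 with hairpin 1 and 73.7 in the control in A-498, and at 79.0 CPM with hairpin 3, 53.2 with hairpin 1 and 60.2 in the control in 786-O. The hairpin 3 library stood apart in A-498 and less so in 786-O (0.78, SE 0.191, edgeR adjusted p = 0.0589). POLH, a polymerase that copies past lesions, had 0.42 (SE 0.178, edgeR adjusted p = 0.193). XPC, the partner of DDB2 in lesion recognition, had -0.03 (SE 0.175, edgeR adjusted p = 0.943), and RRM2B, a subunit of ribonucleotide reductase, had -0.17 (SE 0.157, edgeR adjusted p = 0.537).

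Of the secreted and redox genes, 0 of 3 were called by edgeR with hairpin 3, and 2 had an unadjusted p under 0.05. GDF15, a secreted stress cytokine, stood at 484 CPM with hairpin 3, 358 with hairpin 1 and 309 in the control in A-498, and at 101 CPM with hairpin 3, 35.6 with hairpin 1 and 42.7 in the control in 786-O. The hairpin 3 libraries were the highest of each line (0.97, SE 0.238, edgeR adjusted p = 0.0601). FDXR, the mitochondrial ferredoxin reductase, stood at 214 CPM with hairpin 3, 55.2 with hairpin 1 and 104 in the control in A-498, and at 50.7 CPM with hairpin 3, 23.4 with hairpin 1 and 35.4 in the control in 786-O. The control lay between the hairpins in both lines, above hairpin 1 and below hairpin 3. FDXR had 0.80 with hairpin 3 (SE 0.198, edgeR adjusted p = 0.0613) and -0.75 with hairpin 1 (SE 0.198, edgeR adjusted p = 0.266), the smallest p of any member for hairpin 1. TP53I3, a quinone oxidoreductase, had -0.23 with hairpin 3 (SE 0.213, edgeR adjusted p = 0.551) and -0.69 with hairpin 1 (SE 0.216, edgeR adjusted p = 0.338).

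The count of members called for hairpin 3 against the control varied with the library left out, as did the count over all genes. The members' count was 0 without the A-498 control, 4 without the 786-O control, and 14 without either the 786-O hairpin 3 or the A-498 hairpin 1 library. Over all genes the same fits called 121 without the A-498 control, 235 without the 786-O control, 2337 without the 786-O hairpin 3 and 1953 without the A-498 hairpin 1 library, against 1351 with all libraries. The calls of CDKN1A, PLK3, AEN, PPM1D and PMAIP1 were lost without the 786-O control, and that of PPM1D also without the 786-O hairpin 1 or the A-498 hairpin 3 library (edgeR adjusted p = 0.0673 and 0.0674). The log2 fold changes of these 8 members kept their sign in every such fit. The members' count was 17 with DESeq2 and 17 without the filter on low counts, 16 of them up in each case.

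When the hairpins were set against each other, a difference that takes neither control, 11 members were higher with hairpin 3 than with hairpin 1 and 0 were lower, where 9.48% of all genes were called, 4.09% up and 5.4% down. They were BTG2, FDXR, BBC3, PPM1D, ZMAT3, GADD45A, PERP, DDB2, PHLDA3, AEN and POLH. The median log2 fold change was 0.57 over the members and -0.01 over all genes. In both lines 24 of 30 members (80%) were higher with hairpin 3 and 3 (10%) lower, where 32.9% of all genes were higher in both and 32.8% lower. This comparison and that against the control share the hairpin 3 libraries. BTG2 differed most (1.68, SE 0.227, edgeR adjusted p = 0.0124). FDXR came next (1.54, SE 0.202, edgeR adjusted p = 0.0113), with 3.87 times the hairpin 1 level in A-498 and 2.17 times in 786-O. ZMAT3 was also called (1.23, SE 0.250, edgeR adjusted p = 0.0327), at 3.47 times the hairpin 1 level in A-498 and 1.60 times in 786-O. DDB2 had 0.87 (SE 0.191, edgeR adjusted p = 0.0386), PERP 0.88 (SE 0.161, edgeR adjusted p = 0.0247) and PHLDA3 0.81 (SE 0.116, edgeR adjusted p = 0.0141). PHLDA3 stood at 229 CPM with hairpin 3, 133 with hairpin 1 and 165 in the control in A-498, and at 153 CPM with hairpin 3, 86.3 with hairpin 1 and 107 in the control in 786-O, with hairpin 1 the lowest of each line.

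PERP gives the pattern of the genes for which the hairpins parted in opposite directions from the control in A-498. It stood at 220.0 CPM with hairpin 3, 111 with hairpin 1 and 172 in the control in A-498, and at 168 CPM with hairpin 3, 96.9 with hairpin 1 and 101 in the control in 786-O. The hairpin 1 library lay well below the control in A-498 and near it in 786-O. POLH, called by a small margin (0.79, SE 0.180, edgeR adjusted p = 0.0429), stood at 79.4 CPM with hairpin 3, 35.7 with hairpin 1 and 54.3 in the control in A-498, and at 71.9 CPM with hairpin 3, 53.2 with hairpin 1 and 59.0 in the control in 786-O. TRIAP1 stood at 78.6 CPM with hairpin 3, 34.9 with hairpin 1 and 51.5 in the control in A-498 and at 48.7 CPM with hairpin 3, 40.2 with hairpin 1 and 40.7 in the control in 786-O, and it was not called (0.72, SE 0.209, edgeR adjusted p = 0.0782). GDF15 had 0.97 (SE 0.240, edgeR adjusted p = 0.0517), PMAIP1 0.64 (SE 0.265, edgeR adjusted p = 0.174) and CDKN1A -0.70 (SE 0.182, edgeR adjusted p = 0.0591), and none of them was called. Of the 5 members with a decamer pair near a start, DDB2, AEN and FDXR were called in this comparison and MDM2 (0.10, SE 0.143, edgeR adjusted p = 0.683) and FAS (0.27, SE 0.128, edgeR adjusted p = 0.219) were not. Against the control, AEN alone of these 5 was called with hairpin 3. The called members BTG2, BBC3, PPM1D, ZMAT3, PERP and POLH had no such pair in their listed promoters, and GADD45A and PHLDA3 had no listed promoter. Whether a pair goes with a call was not tested. Without the 786-O hairpin 1 library 3 members were called, BBC3, ZMAT3 and FDXR, and without the 786-O hairpin 3 library 17 were. Over all genes these fits called 249 and 3312, against 1910 with all libraries. Without the A-498 hairpin 1 library DDB2, ZMAT3, PPM1D, POLH and PERP lost the call (edgeR adjusted p = 0.134, 0.0748, 0.0607, 0.199 and 0.102). DDB2 and POLH also lost it without the A-498 hairpin 3 library (edgeR adjusted p = 0.0706 and 0.0897), and POLH without either control (0.0560 without that of A-498 and 0.0549 without that of 786-O).

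**Figure D3:**
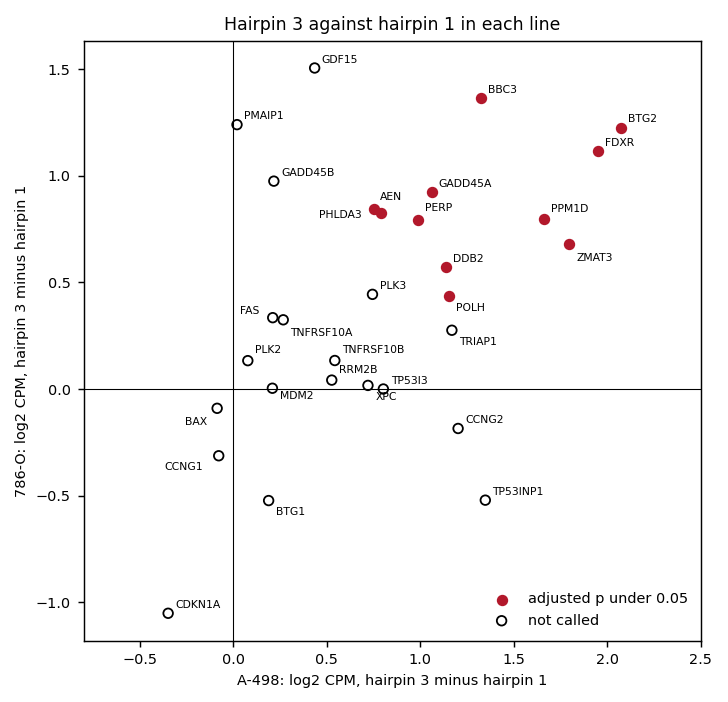
Difference in log2 CPM between hairpin 3 and hairpin 1 in A-498 (x axis) and in 786-O (y axis) for the 30 members, with filled points for those at an adjusted p under 0.05. The 11 called members lie in the upper right, while CDKN1A lies below 0 in both lines.

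Across the 3 constructs, 21 of 30 members (70%) had their highest level with hairpin 3 in both lines, where 23.1% of all genes did. CCNG1 and CDKN1A were the 2 members (6.67%) lowest with hairpin 3 in both lines, where 23.4% of all genes were. The summed CPM of the 30 members was 6098 with hairpin 3, 4345 with hairpin 1 and 4728 in the control of A-498, and 3435 with hairpin 3, 2948 with hairpin 1 and 2956 in the control of 786-O. The hairpin 3 sum was the highest of each line.

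With both hairpins pooled as knockdown, 0 of 30 members were called by edgeR (0% of all genes), by DESeq2 or by limma-voom. Without adjustment 1013 of all 20144 genes had an edgeR p under 0.05, and so did 3 members. These were PMAIP1 (1.05, SE 0.337), TP53INP1 (-0.92, SE 0.353) and GADD45A (0.98, SE 0.379), each with an edgeR adjusted p of 0.939. The median log2 fold change was 0.24 over the members and 3.94e-04 over all genes. Positive values were held by 23 of 30 members and by 50.1% of all genes. In the authors' deposited table, which sets control over knockdown, 0 of 30 members had an adjusted p under 0.05, the lowest being 0.266, while 85 genes of the table did. There 23 members had a negative log2 fold change, which is higher in knockdown. The share of all genes with a negative value there was not counted. No difference in the knockdown effect between A-498 and 786-O was called for any member by edgeR's interaction test (0 of 30 called, where 0% of all genes were, 0 at an unadjusted p under 0.05, and 0 by DESeq2 and limma-voom). The pooled and interaction models count a difference between the hairpins as spread, so they cannot show that an effect is absent. The members' interaction SE ran from 0.341 (PLK2) to 1.22 (BTG2). With construct kept in the model and both hairpins averaged, 0 members were called, where 26 of all genes were. There 13 members had an unadjusted edgeR p under 0.05, and no count over all genes at that p is given here.

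More members were called between the lines than between constructs, and so were more genes in general. In A-498, 18 members were higher than in 786-O and 1 was lower, which is 63.3% of the members, where 61.9% of all genes were called, 32.1% higher and 29.7% lower. The share called was near that of all genes, and the median log2 fold change was 0.61 over the members and 0.02 over all genes. In all 3 constructs at once, 19 members (63.3%) were higher in A-498 and 1 (3.33%) lower, where 40.4% of all genes were higher and 38.3% lower. For 10 members all A-498 libraries lay above all 786-O libraries, where 31.1% of all genes did. For 1 member, GADD45B, they lay below, where 28% of all genes did.

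TP53I3 had the widest gap, at 38.9 CPM with hairpin 3, 22.3 with hairpin 1 and 37.6 in the control in A-498, and at 2.13 CPM with hairpin 3, 2.13 with hairpin 1 and 3.24 in the control in 786-O. Its lowest A-498 library stood far above its highest 786-O library (log2 fold change 3.70, SE 0.191, edgeR adjusted p = 1.16e-05). GDF15 (2.81, SE 0.207, edgeR adjusted p = 5.15e-05) and BTG2 (2.21, SE 0.189, edgeR adjusted p = 9.87e-05) followed. FDXR (1.63, SE 0.165, edgeR adjusted p = 2.13e-04) and MDM2 (1.58, SE 0.119, edgeR adjusted p = 5.82e-05) were also higher in A-498 in every library. All 3 death receptors were higher in A-498, TNFRSF10A by 1.51 (SE 0.111, edgeR adjusted p = 5.09e-05), TNFRSF10B by 1.05 (SE 0.117, edgeR adjusted p = 3.12e-04) and FAS by 0.73 (SE 0.105, edgeR adjusted p = 0.00102). Of the paralogs, BTG2 was higher and BTG1 was not called (-0.12, SE 0.169, edgeR adjusted p = 0.556). GADD45B was lower (-1.44, SE 0.278, edgeR adjusted p = 0.00378) and GADD45A had 0.00 (SE 0.116, edgeR adjusted p = 0.995). CDKN1A was close in the 2 lines (-0.09, SE 0.148, edgeR adjusted p = 0.612). The other 10 called members ranged from 0.45 (PERP) to 1.13 (XPC). Without either control library PERP and RRM2B lost the call, at an edgeR adjusted p of 0.164 or 0.165 for PERP and 0.0768 or 0.0770 for RRM2B, and PLK3 lost it without the A-498 control (edgeR adjusted p = 0.0523). The summed markers of other cell types given above were also higher in A-498, almost all of it COL1A1 at 18.5 to 40.8 CPM, and their part in these differences was not tested. With 1 culture for each line and construct, the line and any other difference between the cultures of the lines cannot be told apart.

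**Figure D4:**
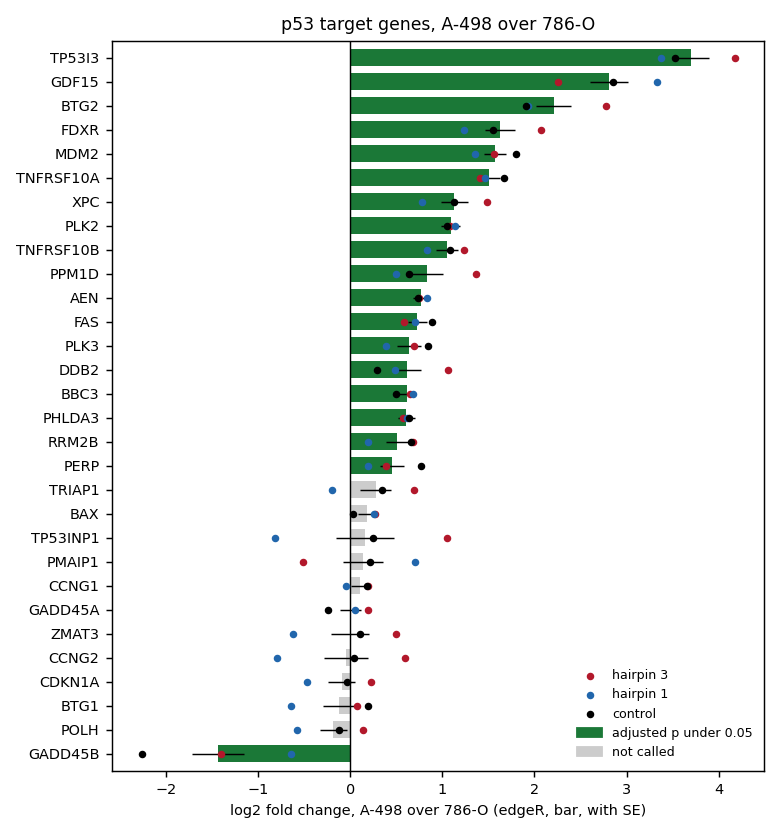
Log2 fold change of A-498 over 786-O for each of the 30 members (bars, with the standard error, over 3 libraries a line), green for an adjusted p under 0.05, with points for the ratio within each construct. TP53I3 and GDF15 are farthest to the right, and GADD45B is the called member whose bar lies left of 0.

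Of 20 genes listed as relatives and regulators of p53, 19 were in the table. With hairpin 3 against the control 1 of them rose and 0 fell, where 2.55% of all genes rose and 4.16% fell. The gene that rose was CREBBP, an acetyltransferase coactivator (0.63, SE 0.116, edgeR adjusted p = 0.0289). MDM4, the partner of MDM2, had 0.55 (SE 0.128, edgeR adjusted p = 0.0538). The p53-binding repair protein gene TP53BP1 had -0.48 (SE 0.115, edgeR adjusted p = 0.0576), and the replication stress kinase gene ATR had -0.43 (SE 0.115, edgeR adjusted p = 0.0733). With hairpin 1, 0 of the 19 were called by edgeR, where 0.149% of all genes were, and 3 had an unadjusted p under 0.05.

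A further list of 31 p53 targets outside the module, 30 of them tested, held 4 that rose with hairpin 3 and 0 that fell, with a median log2 fold change of 0.24. Over all genes 2.55% rose and 4.16% fell. SESN2, a sestrin that restrains mTORC1 and is also known as an ATF4 target, rose (1.30, SE 0.158, edgeR adjusted p = 0.0135), as did TNFRSF10D, a decoy receptor for TRAIL (1.52, SE 0.242, edgeR adjusted p = 0.0211). APAF1, the scaffold of the apoptosome (0.63, SE 0.117, edgeR adjusted p = 0.0296), and SERTAD1, a CDK4-binding protein (0.74, SE 0.167, edgeR adjusted p = 0.0498), rose as well. Against hairpin 1, hairpin 3 raised 11 of the 30 and lowered 1, with a median of 0.47, where 4.09% of all genes were up and 5.4% down. Hairpin 1 against the control called 0 by edgeR (9 at an unadjusted p under 0.05), with a median of -0.25, where 0.149% of all genes were called. Between the lines 20 were higher in A-498 and 2 lower, where 32.1% of all genes were higher and 29.7% lower. Among those called were the G2 arrest protein gene SFN (6.19, SE 0.319, edgeR adjusted p = 1.15e-05) and the matrix protein gene THBS1 (-2.88, SE 0.156, edgeR adjusted p = 1.41e-05).

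p53 lowers cell cycle genes through p21 and the DREAM repressor complex. Of 20 such genes, 0 were called by edgeR with hairpin 3 (8 at an unadjusted p under 0.05) and 0 with hairpin 1 (2 at such a p) against the control, with medians of 0.11 and 0.04. Over all genes 6.71% were called with hairpin 3 and 0.149% with hairpin 1. The smallest p for hairpin 3 was that of the centromere histone gene CENPA (0.70, SE 0.177, edgeR adjusted p = 0.0642). In A-498, 16 of the 20 were lower than in 786-O and 0 higher, with a median of -0.78, where 29.7% of all genes were lower and 32.1% higher. Among the lower ones was BIRC5, the gene of survivin (-1.21, SE 0.135, edgeR adjusted p = 3.19e-04).

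The ATF4 stress genes moved with hairpin 3 beside the p53 members. Of 14 listed, 8 rose with hairpin 3 against the control and 0 fell, with a median of 1.17, where 2.55% of all genes rose and 4.16% fell. With hairpin 1, 0 were called by edgeR, where 0.149% of all genes were, 3 had an unadjusted p under 0.05, and the median was 0.26. Their summed level was 2971 CPM with hairpin 3, 1905 with hairpin 1 and 1356 in the control of A-498, and 2978 CPM with hairpin 3, 1087 with hairpin 1 and 1162 in the control of 786-O. ATF4 itself rose (1.26, SE 0.163, edgeR adjusted p = 0.0145), as did the asparagine synthetase gene ASNS (2.26, SE 0.287, edgeR adjusted p = 0.0143). Their part in the levels of PMAIP1, BBC3, GDF15, GADD45A and the other members was not tested.

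Overlapping genes limit some values. No source used here states the strand setting of the authors' counting, and in GENCODE release 29 (GRCh38) 11 members share exon bases with a gene on the opposite strand and 4 with a gene on the same strand. Among the members called for hairpin 3 against the control, CDKN1A shares 146 exon bases with DINOL, PLK3 78 with TCTEX1D4 and BBC3 80 with MIR3190. Some members called only in other comparisons share more, summed over the overlapping genes. On the opposite strand XPC shares 1871 of 4798 exon bases, MDM2 918, TNFRSF10A 490 and FAS 380. On the same strand PHLDA3 shares 598 and MDM2 439. TP53I3, TNFRSF10B and POLH share 80, 67 and 4 bases on the opposite strand. Reads from these stretches may belong to either gene.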

How the data were processed

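Whole-number read counts per gene symbol were deposited by the authors for 6 libraries, without normalization. Per the file headers, the same table holds the authors' comparison of control over knockdown: a mean signal per gene, a log2 fold change and its error, a Wald score, and raw and adjusted p-values. The submitters' processing notes name STAR, DESeq2 and the genome builds hg19 and hs37d5, without roles or versions. No source used here states the counting tool or strand setting.

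For testing, edgeR 4.0.16 was run in R 4.3.3 on the counts (TMM scaling, expression filter, quasi-likelihood F tests, Benjamini-Hochberg adjustment, calls at an adjusted p under 0.05). Hairpins and lines were compared in a model of line and construct (2 residual degrees of freedom), pooled knockdown in a model of line and knockdown (3), and the interaction in a model of 4 means (2). Log-CPM used a prior count of 2. DESeq2 1.42.0 and limma-voom 3.58.1 were alternatives, and the steps were tested on simulated data. CDKN2A was not analysed here. No number column was left unlisted (0). Every member could be named, and from other lists MDM4 and the 4 genes of smallest p. Some genes of the other lists are not reported here. Members and lists were chosen with earlier results of these data known. No label gives a batch.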

Additional observations from a re-analysis of the deposited data

Results flagged for a closer look

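BTG1, the paralog of BTG2, was the member whose knockdown libraries lay on opposite sides of the control in the lines. In A-498 BTG1 stood at 97.3 CPM with hairpin 3, 85.3 with hairpin 1 and 104 in the control, and in 786-O at 92.4 CPM with hairpin 3, 133 with hairpin 1 and 91.4 in the control. Both hairpins were below the control in A-498 and above it in 786-O, by a small margin for hairpin 3. The mean difference from the control was 0.47 lower on the log2 scale in A-498 than in 786-O, a value of -0.47. edgeR's interaction test gave -0.50 with an SE of 0.443 and an adjusted p of 1, so the difference was not called.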

How the results depend on the processing

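No call of a member in the report reversed: over 38 calls and 380 refits, 343 kept the call, 37 lost it and 0 changed sign. All 37 losses came from leaving out a library, and 0 of 152 from another tool, scaling or filter. For hairpin 3 against the control, 8 members were called as reported, 17 without the filter on low counts, 17 by DESeq2, and 0 to 14 with 1 library left out (121 to 2337 over all genes). For hairpin 1 against the control, 0 were called as reported, 2 without the filter, and 0 to 4 with 1 library left out (0 to 608 over all genes). For hairpin 3 against hairpin 1, 11 were called as reported and 3 to 17 with 1 library left out (249 to 3312 over all genes), and for A-498 against 786-O 19 and 16 to 21 (9923 to 12366 over all genes). Over all genes, hairpin 3 against the control called 1351, against 2654 without the filter and 2589 by DESeq2. Hairpin 1 called 30, against 478 without the filter and 466 by DESeq2, and hairpin 3 against hairpin 1 called 1910, against 3117 and 2990. The cause was not tested. Pooled knockdown called 0 members in every fit, and 0 genes by edgeR, 92 by DESeq2 and 1 by limma-voom. The model of line and construct, with both hairpins averaged, called 0 members and 26 genes. The pairing check could not be made with 1 library per hairpin and line. The interaction could not be fitted without a control library. The 2 or 3 residual degrees of freedom of the models limit every result here, and without the A-498 control 0 members were called for hairpin 3. The smallest member count, 160, leaves counting error small beside these limits.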

Other observations

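Per kilobase of exon in GENCODE release 29, which allows levels to be set beside each other across genes, the order of the members differed with hairpin 3. CDKN1A stood at 95.5 CPM per kb with hairpin 3 and 171 in the control of A-498, and at 81.4 with hairpin 3 and 175 in the control of 786-O. It ranked 6 of 30 with hairpin 3 and 2 in the control of A-498, and 4 with hairpin 3 and 1 in the control of 786-O. BTG2 ranked 4 with hairpin 3 and 15 in the control of A-498, and 18 with hairpin 3 and 23 in the control of 786-O. These ranks have no test, and exon length is that of all annotated transcripts together.

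CCNG2, XPC and RRM2B stood lower with hairpin 1 than with either other construct in A-498 by a wide margin. CCNG2 stood at 32.9 CPM with hairpin 3, 14.3 with hairpin 1 and 32.7 in the control there, and at 21.7 CPM with hairpin 3, 24.7 with hairpin 1 and 31.8 in the control in 786-O. XPC stood at 95.4 CPM with hairpin 3, 57.9 with hairpin 1 and 86.4 in the control in A-498, and at 34.1 CPM with hairpin 3, 33.7 with hairpin 1 and 39.7 in the control in 786-O. RRM2B stood at 282 CPM with hairpin 3, 195 with hairpin 1 and 317 in the control in A-498, and at 176 CPM with hairpin 3, 171 with hairpin 1 and 199.7 in the control in 786-O. In 786-O the hairpin libraries of these genes lay below the control. In hairpin 1 against the control, 0 of the 3 were called by edgeR's quasi-likelihood test with Benjamini-Hochberg adjustment (adjusted p = 0.460 for CCNG2, 0.501 for XPC and 0.387 for RRM2B).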
